A study of Mus musculus with 8 samples.

Results

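The genes described are 38 that encode proteins of blood clotting, clot breakdown and complement, measured by RNA-seq in primary mouse hepatocytes. They comprise 15 coagulation genes, 5 genes of fibrinolysis and 18 complement genes, taken from a list of symbols and matched to the gene identifiers of the count files. The serpin inhibitors of these cascades were not part of the list. The files held 55450 genes, of which 15468 had enough reads to be tested, and all 38 members were among them. Hepatocytes came from male C57BL/6 mice at 8 weeks of age. The WT cells carried the floxed allele Slc39a8(F/F) without Cre (2 libraries), and the LSKO cells were Alb-cre(+/+);Slc39a8(F/F) (2 untreated libraries). Slc39a8 encodes the metal and selenite importer ZIP8. The LSKO cells given MnCl2, FeCl2, Sodium Selenite or ZnCl2 at 2 µM made up 1 library each. All cells were kept in serum-free medium with 10 µM dexamethasone, a synthetic glucocorticoid, and the metals were present for 24 h by the protocol and overnight by the series description. Cre was driven by the albumin promoter, so the effect of Cre itself and the loss of Slc39a8 cannot be told apart in these groups, and the study describes the ZIP8 activity of the LSKO line as reduced rather than absent. The comparison of LSKO with WT asks what the deletion changed, and those of each metal with untreated LSKO ask what the metal changed in deleted cells.

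Hepatocytes secrete most of the clotting factors, plasminogen and most complement components of plasma. In coagulation, serine proteases are activated in sequence until thrombin cuts fibrinogen into fibrin, and protein C with protein S switches the sequence off. Plasmin, made from plasminogen, dissolves the clot. In complement, the classical, lectin and alternative routes converge on C3 and then on the membrane attack complex. Fibrinogen and several complement components are acute phase proteins, whose liver synthesis is raised by interleukin-6 together with glucocorticoids.

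The libraries held 19943899 to 27731054 reads in genes, and levels are given as normalized CPM, the reads of a gene scaled to the library's reads in genes with TMM (trimmed mean) factors. Slc39a8 itself was at 12.7 and 15.5 normalized CPM in WT and at 1.48 to 8.14 in the LSKO libraries. The untreated LSKO replicate 1 stood apart at 8.14, against 1.87 in replicate 2. The hepatocyte markers Alb, Ttr, Apoa1, Hnf4a, Cps1, Tat, Asgr1 and Serpina1a were present in every library, with a summed level of 19113 to 20131 in WT, 27921 to 35495 in untreated LSKO, and 41261, 29937, 48216 and 35061 with manganese, iron, selenite and zinc. The read summaries of the libraries differed, and the labels do not say whether the libraries were processed apart. In the manganese library 72.2% of reads lay in genes, against 39.3 to 42.1% in the others, and unaligned reads made up 8.79 to 10.00% in the untreated LSKO and manganese libraries against 4.12 to 4.94% in the other 5. The WT and untreated LSKO libraries therefore differ in these read summaries as well as in genotype. The iron, selenite and zinc libraries differ in them from untreated LSKO too. These differences cannot be told apart from genotype or metal in those comparisons. For this reason 2 further comparisons were made among the 5 libraries with similar read summaries.

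Per kilobase of exon, the most abundant members were Mbl2, Fgb, C3, Kng1, Cpb2 and F2, with mean levels over the 8 libraries of 332, 264, 223, 183, 153 and 105 normalized CPM per kb. The lowest were Klkb1, C6 and Plau, at 0.530, 0.975 and 1.09 normalized CPM per kb. All 3 branches were spread over this range, so no branch held the high or the low end. Neighbours in the order mostly overlapped between libraries, as the bars in the plot of levels per exon length show.

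**Figure D1:**
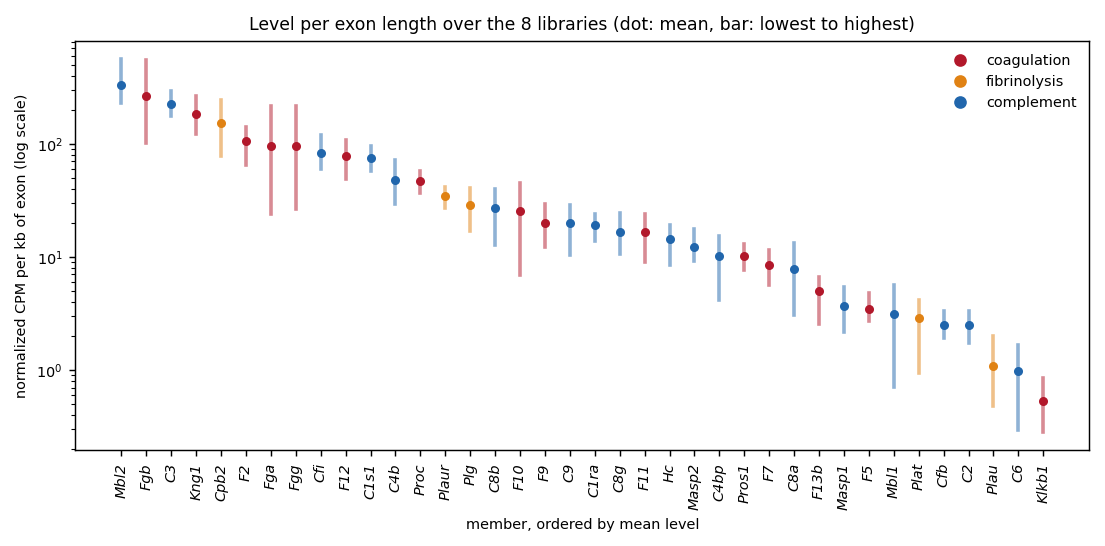
Mean level of each of the 38 members over the 8 libraries in normalized CPM per kb of exon (dots, log axis), with bars from the lowest to the highest library and colours for coagulation, fibrinolysis and complement. Mbl2 stands highest at a mean of 332 and Klkb1 lowest at 0.530, and the bars of most neighbours overlap.

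Between LSKO and WT, 24 of the 38 members were higher in LSKO and 1 was lower. A member was counted as higher or lower where edgeR's quasi-likelihood test gave a Benjamini-Hochberg adjusted p under 0.05 over all genes and a log2 fold change beyond 0.5, a rule that 6.74% of all genes tested passed as higher, 3.7% as lower and 10.4% in all. Coagulation had 12 of 15 members higher, complement 11 of 18, and fibrinolysis 1 of 5 higher and 1 lower. The median log2 fold change was 0.64 over the members and 0.00 over all genes. Nothing in the labels ties the replicates to separate mice or cultures, so each p measures the spread between libraries, which may be technical. In bulk RNA of this kind, fewer cells of a type and less RNA per cell cannot be told apart.

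The order of the libraries was the same for most members. In 33 of the 38, untreated LSKO replicate 2 was above LSKO replicate 1, which was above both WT libraries, an order that 24.8% of all genes tested had. Pros1, Plau and Plaur had the reverse order, as did 22.2% of all genes. Each of the 6 LSKO libraries was above both WT libraries in 26 members, against 11.2% of all genes, and below both in 1, Plau, against 9.59%. A WT library was the lowest of the 8 in 30 members, against 22.8%. The levels of the 38 members summed to 3983 and 3995 normalized CPM in WT, 5529 and 7094 in untreated LSKO, and 7404, 5515, 9241 and 7359 with manganese, iron, selenite and zinc. The summed levels in the LSKO libraries therefore spanned a range of their own, with untreated replicate 1 and iron lowest and selenite highest.

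The hepatocyte marker list moved with these counts. All 8 of its genes were higher in LSKO than in WT, from a log2 fold change of 0.52 to 2.69, and its summed level did not overlap between the groups. Per 1000 normalized CPM of the marker sum, which is mostly Alb, the members summed to 198 and 209 in WT and to 198 and 199.9 in untreated LSKO, and these values overlapped. With Alb left out of the marker sum they did not, at 2599.8 and 2806 in WT and 1977 and 1764 in untreated LSKO, the WT pair on top. With Alb in the sum, the 3 fibrinogen chains did not overlap, at 26.3 and 27.3 per 1000 in WT and 43.3 and 52.97 in untreated LSKO, while the complement members stood at 101 and 111 against 88.8 and 83.1, with the WT pair on top. Summed levels were 177 to 183 in WT and 117 to 147 in untreated LSKO for sinusoidal endothelial cells. For stellate cells and fibroblasts they were 27.9 to 29.2 in WT and 18.9 to 24.1 in untreated LSKO. Of those 6 stellate genes, 4 had a log2 fold change under 0 and 2 above. Of the Kupffer cell and macrophage markers 1 of 7 was higher, with a median log2 fold change of 0.07 over the list. Their sum was 196 to 216 in WT and 250 to 281 in untreated LSKO, without overlap. Without Cd68, the most abundant, that sum was 76.8 and 61.4 in WT and 72.2 and 79.3 in untreated LSKO, which overlapped. The 4 platelet markers summed to 3.34 to 5.73, mostly Itga2b, with Gp9 at 0 in 7 and Ppbp at 0 in 6 of the 8 libraries. The part of these shifts in the members' results was not tested.

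Of the 25 called members, F10, Fga, Fgb, Fgg, C8b and C4bp passed under each of the 13 refits with another tool, scaling, filter or correction or with a library left out. Fewer members passed without either WT library or without LSKO replicate 2, and more without LSKO replicate 1. The share of all genes that passed moved the same way. Without WT replicates 1 and 2 in turn, the median log2 fold change over the members was 0.68 and 0.63. Without LSKO replicates 1 and 2 in turn it was 0.83 and 0.49. Over all genes it was 0.02 to 0.03.

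**Figure D2:**
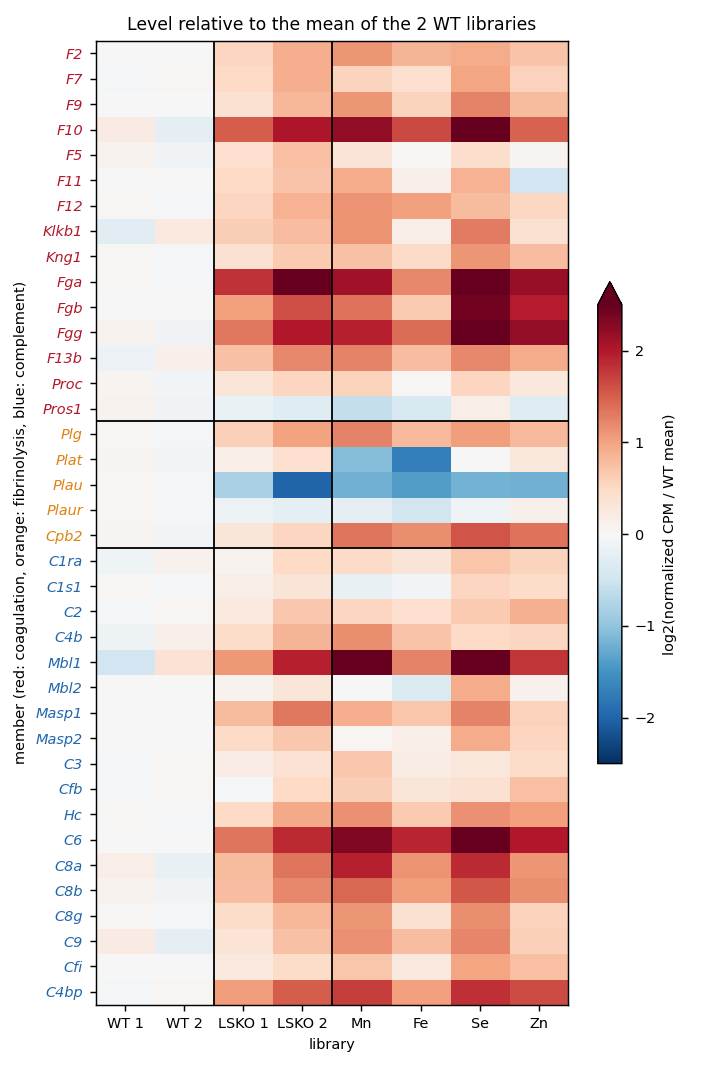
Log2 ratio of each member's normalized CPM to the mean of the 2 WT libraries in each of the 8 libraries, with members in rows by branch and values above 2.5 drawn at the top of the colour scale. Most rows turn darker from LSKO 1 to LSKO 2, Fgb, Fgg and F10 are darkest within their rows with selenite, Fga is at the top of the scale in LSKO 2 and with selenite, and Plau is below WT in all 6 LSKO libraries.

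The 4 vitamin K-dependent zymogens, whose clotting activity needs a vitamin K-dependent modification of their glutamate residues, were all higher in LSKO than in WT. F2, the gene of prothrombin, measured 302 and 301 normalized CPM in WT, 437 and 566 in untreated LSKO, and 650.4, 542, 573 and 496 with manganese, iron, selenite and zinc (log2 fold change 0.73 ± 0.11 (SE), adjusted p = 0.00121). F7, whose protein starts clotting together with tissue factor, measured 10.6 and 11.1 normalized CPM in WT, 15.4 and 20.4 in untreated LSKO, and 15.9, 14.4, 21.5 and 16.2 with manganese, iron, selenite and zinc (log2 fold change 0.73 ± 0.15 (SE), adjusted p = 0.00836). F9, the gene of the factor lacking in haemophilia B, measured 34.3 and 33.7 normalized CPM in WT, 44.4 and 60.1 in untreated LSKO, and 72.6, 50.1, 80.8 and 58.6 with manganese, iron, selenite and zinc (log2 fold change 0.62 ± 0.13 (SE), adjusted p = 0.00777). In all 3 the WT pair lay below every LSKO library, and untreated LSKO replicate 2 was above replicate 1. F10, which encodes the protease that activates prothrombin, changed most of the 4 and measured 25.5 and 18.8 normalized CPM in WT, 63.6 and 89.6 in untreated LSKO, and 102, 69.7, 124 and 61.6 with manganese, iron, selenite and zinc (log2 fold change 1.79 ± 0.17 (SE), adjusted p = 6.22e-05). The fitted fold was 3.45, and the WT replicates themselves differed more than in F2 or F9. F7 and F10 are neighbours on the + strand of chromosome 8 (GRCm38, chr8:13026034-13035809 and chr8:13037308-13056676), with log2 fold changes of 0.73 and 1.79.

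F5, the cofactor that F10 needs, measured 22.5 and 20.01 normalized CPM in WT, 28.5 and 35.8 in untreated LSKO, and 26.6, 21.6, 28.7 and 22.3 with manganese, iron, selenite and zinc (log2 fold change 0.60 ± 0.13 (SE), adjusted p = 0.0102). It was higher in untreated LSKO, while its iron and zinc libraries lay within the WT range. The contact phase starts clotting on charged surfaces, and 3 of its 4 genes were higher in LSKO. F11 measured 28.5 and 27.9 normalized CPM in WT, 39.9 and 46.3 in untreated LSKO, and 53.6, 31.02, 51.2 and 20.2 with manganese, iron, selenite and zinc (log2 fold change 0.61 ± 0.10 (SE), adjusted p = 0.00236), and its zinc library was below both WT libraries. F12, which encodes the factor that begins the contact phase, measured 98.6 and 95.8 normalized CPM in WT, 140.3 and 178 in untreated LSKO, and 212, 198, 168 and 139 with manganese, iron, selenite and zinc (log2 fold change 0.71 ± 0.10 (SE), adjusted p = 0.00115). All LSKO libraries of F12 were above WT, with manganese highest. Kng1, the gene of high molecular weight kininogen, from which bradykinin is released, measured 409 and 397 normalized CPM in WT, 522 and 637 in untreated LSKO, and 673, 564, 872 and 683 with manganese, iron, selenite and zinc (log2 fold change 0.52 ± 0.10 (SE), adjusted p = 0.00436), and its call was lost in 5 of the 13 refits. Klkb1, the gene of plasma prekallikrein, had the lowest level per length of all members and measured 1.49 and 2.14 normalized CPM in WT, 2.77 and 3.09 in untreated LSKO, and 3.94, 2.04, 4.44 and 2.36 with manganese, iron, selenite and zinc. With log2 fold change 0.71 ± 0.27 (SE), adjusted p = 0.109, Klkb1 did not pass, although no LSKO library of it other than iron lay within the WT range. Reads of Kng1 can be shared with its near-identical copy Kng2, which held 28.6 to 37.5% of the reads of the pair, and 43.2% of the exon bases of Klkb1 are also annotated to the overlapping Gm45753 on the same strand.

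The 3 chains of fibrinogen, the soluble precursor of fibrin, were with F10 the most changed coagulation genes. Fga, the alpha chain gene, measured 76.1 and 72.4 normalized CPM in WT, 261 and 440.0 in untreated LSKO, and 317, 170.5, 651 and 336 with manganese, iron, selenite and zinc (log2 fold change 2.24 ± 0.19 (SE), adjusted p = 3.21e-05). Fgb, the beta chain gene, measured 391 and 394 normalized CPM in WT, 799 and 1204 in untreated LSKO, and 1010.2, 619, 2094 and 1530.4 with manganese, iron, selenite and zinc (log2 fold change 1.35 ± 0.15 (SE), adjusted p = 1.82e-04). Fgg, the gamma chain gene, measured 62.6 and 55.4 normalized CPM in WT, 148 and 237 in untreated LSKO, and 227, 156, 455 and 271 with manganese, iron, selenite and zinc (log2 fold change 1.71 ± 0.17 (SE), adjusted p = 1.09e-04). The WT pairs lay close together and below every LSKO library in each chain, and selenite was the highest library of all 3 chains. The iron library was below both untreated LSKO libraries for Fga and Fgb and between them for Fgg. Per exon length, Fgb made up 54.9 to 67.2% of the 3 chains, Fga 15.6 to 25.4% and Fgg 17.2 to 25.4%, and the share of Fga was 16.02% and 15.6% in WT and 23.6% and 25.4% in untreated LSKO. The summed level of the chains was 529 and 522 normalized CPM in WT, 1208 and 1880.2 in untreated LSKO, and 1555, 946, 3199.9 and 2137 with manganese, iron, selenite and zinc. F13b, which encodes the carrier subunit of the fibrin crosslinking factor XIII, measured 6.41 and 7.80 normalized CPM in WT, 11.8 and 16.2 in untreated LSKO, and 16.8, 12.1, 16.4 and 13.4 with manganese, iron, selenite and zinc (log2 fold change 0.99 ± 0.18 (SE), adjusted p = 0.00405), and both WT libraries were below all LSKO libraries.

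**Figure D3:**
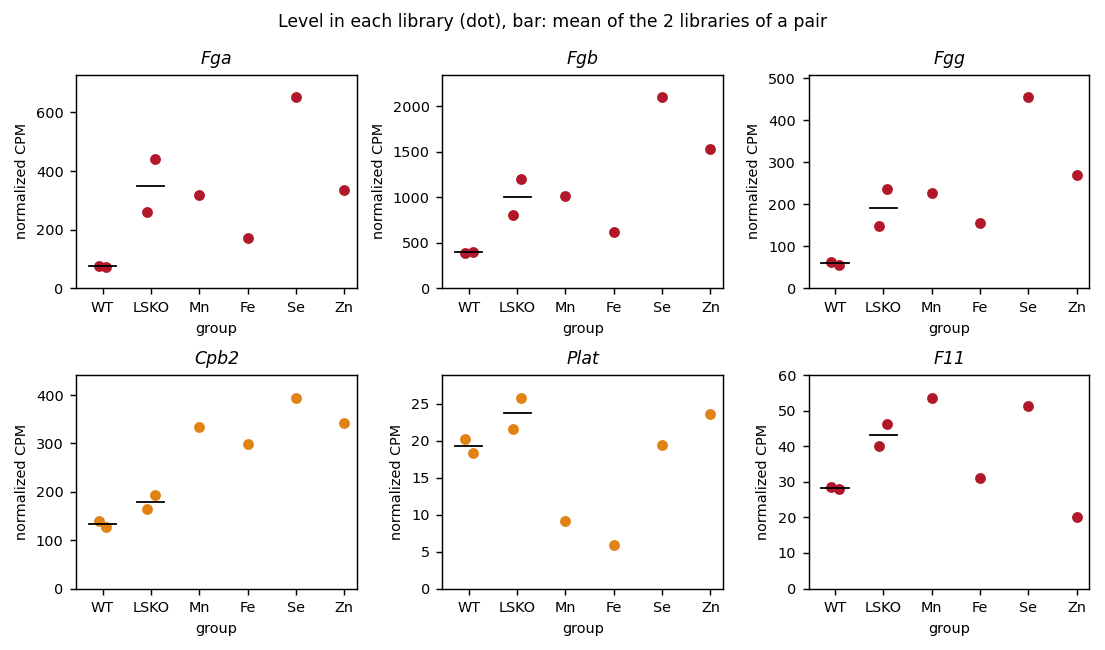
Normalized CPM of Fga, Fgb, Fgg, Cpb2, Plat and F11 in each library (dots, linear axes from 0), with a bar at the mean of the 2 WT and of the 2 untreated LSKO libraries. The fibrinogen chains are highest with selenite, Cpb2 is above both untreated LSKO libraries with each metal, Plat is lowest with iron, and F11 is lowest with zinc.

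The fibrinogen genes lie side by side on chromosome 3 (GRCm38, Fgg at chr3:83007724-83015049, Fga at chr3:83026076-83033627 and Fgb at chr3:83040141-83049863), with Fgb on the opposite strand. All 3 were higher in LSKO than in WT and with selenite than in untreated LSKO, while with iron Fga and Fgb were lower and Fgg did not pass, and with zinc none of the 3 passed. Their upstream sequences are therefore shown, with that of Cpb2, the member that passed with each metal. Each line gives 150 bases before the annotated start (RefSeq, GRCm38.p6), from chr3:83025926-83026075 on the + strand, chr3:83049864-83050013 on the - strand, chr3:83007574-83007723 on the + strand and chr14:75242137-75242286 on the + strand. Capitals mark matches, on either strand, to 6 motifs searched in the 250 bases before each RefSeq start.
Fga: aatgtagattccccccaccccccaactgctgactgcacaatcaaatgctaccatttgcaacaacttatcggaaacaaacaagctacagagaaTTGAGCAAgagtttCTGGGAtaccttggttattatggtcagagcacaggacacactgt
Fgb: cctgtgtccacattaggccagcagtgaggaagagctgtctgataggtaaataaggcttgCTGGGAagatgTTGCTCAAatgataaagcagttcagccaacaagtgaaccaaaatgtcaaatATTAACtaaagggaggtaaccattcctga
Fgg: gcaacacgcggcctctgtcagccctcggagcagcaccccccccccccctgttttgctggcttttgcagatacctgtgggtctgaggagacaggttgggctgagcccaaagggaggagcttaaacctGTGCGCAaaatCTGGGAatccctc
Cpb2: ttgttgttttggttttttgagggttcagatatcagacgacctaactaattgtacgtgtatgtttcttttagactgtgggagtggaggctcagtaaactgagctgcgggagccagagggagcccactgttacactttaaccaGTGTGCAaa
The Fga stretch ends 77 bases before the RefSeq start, since a longer annotated transcript begins there. Fga and Fgb both held a match to the C/EBP motif TTGCNNAA and to CTGGGA, the core letters of the interleukin-6 response element, and Fgg held CTGGGA next to its start. CTGGGA was found in 27% of all 32851 RefSeq promoters and in 46.7% of the 30 promoters of the 28 members with an entry. The C/EBP motif was in 9.56% of all and 30% of the members' promoters, and the HNF1 motif GTTAAT, found upstream of Fgb and, nearer the start than the bases shown, of Fga, in 6.43% and 26.7%. The glucocorticoid receptor motif TGTTCT was in 16.1% and 33.3%, and in Fgg it lay further upstream than the bases shown. The metal response element core was searched as TGCACNC, in 10.4% of all and 10% of the members' promoters, and as TGCGCNC, in 12.5% and 3.33%. Cpb2 matched the first and Fgg the second. No match overlapped another in the bases shown, and a match describes letters only.

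The protein C system inactivates the clotting cofactors, and neither of its genes passed between LSKO and WT. Proc, the gene of protein C, measured 99.4 and 90.97 normalized CPM in WT, 118 and 138 in untreated LSKO, and 142, 96.9, 138 and 114 with manganese, iron, selenite and zinc (log2 fold change 0.43 ± 0.09 (SE), adjusted p = 0.0102). Pros1, which encodes its cofactor protein S, measured 49.95 and 44.5 normalized CPM in WT, 42.2 and 38.04 in untreated LSKO, and 31.4, 36.4, 53.01 and 38.4 with manganese, iron, selenite and zinc (log2 fold change -0.24 ± 0.10 (SE), adjusted p = 0.136). Among the untreated libraries, Proc had the same order as the clotting zymogens at a smaller step, and Pros1 had the reverse order. The iron library of Proc lay within the WT range, and the selenite library of Pros1 was above both WT libraries.

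The fibrinolysis genes did not move as a group. Plg, the gene of plasminogen, measured 65.3 and 62.9 normalized CPM in WT, 97.4 and 129 in untreated LSKO, and 151, 113, 132 and 112 with manganese, iron, selenite and zinc (log2 fold change 0.82 ± 0.12 (SE), adjusted p = 9.31e-04), and was higher in LSKO with no overlap. Plau, the gene of urokinase, measured 4.75 and 4.40 normalized CPM in WT, 2.60 and 1.14 in untreated LSKO, and 1.99, 1.74, 2.02 and 2.00 with manganese, iron, selenite and zinc (log2 fold change -1.32 ± 0.34 (SE), adjusted p = 0.0243). It was the one member lower in LSKO, at 31 to 59 reads in the untreated LSKO libraries against 101 to 137 in WT, and the call was lost with DESeq2 and without either WT library or LSKO replicate 2. Plaur, the gene of the urokinase receptor, measured 102 and 95.3 normalized CPM in WT, 89.4 and 84.3 in untreated LSKO, and 84.7, 71.3, 92.04 and 108 with manganese, iron, selenite and zinc (log2 fold change -0.18 ± 0.08 (SE), adjusted p = 0.148) and did not pass. Plat, which encodes tissue plasminogen activator, a product of endothelial cells in blood vessels, measured 20.2 and 18.3 normalized CPM in WT, 21.6 and 25.8 in untreated LSKO, and 9.10, 5.92, 19.4 and 23.6 with manganese, iron, selenite and zinc (log2 fold change 0.30 ± 0.13 (SE), adjusted p = 0.144). Cpb2, whose product protects fibrin from plasmin by trimming its lysines, measured 139 and 127 normalized CPM in WT, 164 and 194 in untreated LSKO, and 335, 298, 395 and 342 with manganese, iron, selenite and zinc (log2 fold change 0.43 ± 0.09 (SE), adjusted p = 0.0121). Plat and Cpb2 did not pass in this comparison.

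Of the classical pathway genes, 1 of 4 was higher in LSKO. C1ra, which encodes a protease of the C1 complex, measured 41.3 and 47.8 normalized CPM in WT, 47.6 and 62.7 in untreated LSKO, and 62.00, 55.7, 72.2 and 65.6 with manganese, iron, selenite and zinc (log2 fold change 0.31 ± 0.13 (SE), adjusted p = 0.130). C1s1, which encodes the C1 protease that cuts C4 and C2, measured 209 and 203 normalized CPM in WT, 230.2 and 259 in untreated LSKO, and 181, 197, 298 and 284 with manganese, iron, selenite and zinc (log2 fold change 0.25 ± 0.08 (SE), adjusted p = 0.0645). C2, which forms the classical C3 convertase with C4, measured 6.73 and 7.24 normalized CPM in WT, 8.27 and 11.1 in untreated LSKO, and 10.1, 9.36, 11.1 and 12.99 with manganese, iron, selenite and zinc (log2 fold change 0.48 ± 0.17 (SE), adjusted p = 0.0929). These 3 did not pass. C4b, the gene of C4, measured 166 and 197 normalized CPM in WT, 250.3 and 327 in untreated LSKO, and 409, 298, 256 and 263 with manganese, iron, selenite and zinc (log2 fold change 0.67 ± 0.12 (SE), adjusted p = 0.00465) and passed, with no overlap between the WT and LSKO libraries. The near-identical copies took few of the reads, C4a 0.928 to 2.38% of the C4 pair, C1rb 0 to 1.16% of the C1r pair and C1s2 0.0142 to 0.231% of the C1s pair. C2 and Cfb share annotated exons with the read-through gene Gm20547, whose count was 0 in every library, so reads in the shared bases can have been discarded as ambiguous.

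The lectin pathway recognises sugars on microbes, and 3 of its 4 genes were higher in LSKO. Mbl1, which encodes a mannose-binding lectin, was a low gene at 1.11 and 1.96 normalized CPM in WT, 3.26 and 5.88 in untreated LSKO, and 8.84, 3.63, 8.93 and 5.33 with manganese, iron, selenite and zinc (log2 fold change 1.61 ± 0.34 (SE), adjusted p = 0.00911). Mbl2, the gene of the second mannose-binding lectin, was the most abundant member per length and measured 322 and 319 normalized CPM in WT, 339 and 394 in untreated LSKO, and 318, 249.9, 610.0 and 345 with manganese, iron, selenite and zinc (log2 fold change 0.20 ± 0.09 (SE), adjusted p = 0.157). Mbl1 was 3.06-fold higher from a low level, while Mbl2 did not pass. Masp1, which encodes a protease carried by these lectins, measured 21.7 and 21.2 normalized CPM in WT, 36.9 and 53.5 in untreated LSKO, and 40.3, 34.9, 50.4 and 32.05 with manganese, iron, selenite and zinc (log2 fold change 1.08 ± 0.15 (SE), adjusted p = 8.37e-04). Masp2, the gene of the lectin protease that cuts C4, measured 30.7 and 31.4 normalized CPM in WT, 43.3 and 49.6 in untreated LSKO, and 32.3, 34.9, 58.7 and 44.9 with manganese, iron, selenite and zinc (log2 fold change 0.58 ± 0.10 (SE), adjusted p = 0.00248). Both were higher. For Masp2 54.9% of exon bases overlap Tardbp on the opposite strand. Where counting ignored the strand, reads in those bases can have been discarded as ambiguous.

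C3 is the point where the pathways meet, and Cfb encodes the protease of its alternative route. C3 measured 906 and 977 normalized CPM in WT, 1072 and 1209.9 in untreated LSKO, and 1512, 1070.3, 1145 and 1299 with manganese, iron, selenite and zinc (log2 fold change 0.28 ± 0.08 (SE), adjusted p = 0.0528). Cfb measured 5.41 and 5.75 normalized CPM in WT, 5.37 and 7.86 in untreated LSKO, and 8.55, 6.87, 7.30 and 9.37 with manganese, iron, selenite and zinc (log2 fold change 0.26 ± 0.20 (SE), adjusted p = 0.449). Neither passed. Every LSKO library of C3 was above both WT libraries by a small margin, and for Cfb the untreated LSKO pair spanned the WT pair.

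All 6 genes of the terminal pathway, which builds the membrane attack complex, were higher in LSKO. Hc, the gene of complement C5, measured 54.9 and 53.2 normalized CPM in WT, 76.6 and 105 in untreated LSKO, and 119.7, 85.6, 119 and 109.5 with manganese, iron, selenite and zinc (log2 fold change 0.75 ± 0.12 (SE), adjusted p = 0.00254). C6, a low gene, measured 1.04 and 1.05 normalized CPM in WT, 2.64 and 3.79 in untreated LSKO, and 5.16, 3.88, 5.97 and 4.19 with manganese, iron, selenite and zinc (log2 fold change 1.63 ± 0.28 (SE), adjusted p = 0.00319). C9, which forms the pore, measured 36.99 and 26.8 normalized CPM in WT, 40.6 and 53.3 in untreated LSKO, and 70.6, 54.6, 73.9 and 47.9 with manganese, iron, selenite and zinc (log2 fold change 0.56 ± 0.16 (SE), adjusted p = 0.0364). C6 had the largest fold of the complement genes at 3.09, and C9 the smallest that passed. The call of C9 was lost with DESeq2 and without either WT library or LSKO replicate 2. C8 is built from 3 chains. C8a measured 14.04 and 11.1 normalized CPM in WT, 21.7 and 31.8 in untreated LSKO, and 48.1, 27.2, 46.1 and 26.96 with manganese, iron, selenite and zinc (log2 fold change 1.09 ± 0.18 (SE), adjusted p = 0.00206). C8b measured 36.8 and 32.7 normalized CPM in WT, 59.7 and 80.4 in untreated LSKO, and 94.3, 71.5, 102 and 78.1 with manganese, iron, selenite and zinc (log2 fold change 1.01 ± 0.13 (SE), adjusted p = 4.67e-04). C8g measured 16.7 and 15.8 normalized CPM in WT, 22.2 and 28.8 in untreated LSKO, and 34.9, 21.2, 36.4 and 24.2 with manganese, iron, selenite and zinc (log2 fold change 0.65 ± 0.13 (SE), adjusted p = 0.00764). In each chain the WT pair was below all 6 LSKO libraries and manganese or selenite was highest. C8a and C8b lie next to each other on chromosome 4 (chr4:104815679-104876398 and chr4:104766317-104804548) on opposite strands, while C8g is on chromosome 2 (chr2:25498651-25501719).

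Of the plasma regulators, 1 of 2 passed. C4bp, which encodes the inhibitor that binds C4b, measured 28.3 and 30.1 normalized CPM in WT, 59.8 and 82.8 in untreated LSKO, and 96.7, 59.4, 104 and 90.6 with manganese, iron, selenite and zinc (log2 fold change 1.29 ± 0.13 (SE), adjusted p = 1.15e-04). Cfi, which encodes the protease that inactivates C3b and C4b, measured 135 and 133 normalized CPM in WT, 159 and 184 in untreated LSKO, and 216, 158, 265 and 225 with manganese, iron, selenite and zinc (log2 fold change 0.36 ± 0.08 (SE), adjusted p = 0.0169). All 6 LSKO libraries of both were above WT, and the fold of Cfi stayed under the limit. Over all 38 members, F5, Fgg, Plg, C1s1, C2, Masp2 and Hc share 1.21 to 54.9% of their exon bases with a gene on the opposite strand, Fgg 5.49%, and with these 7 left out 20 members passed between LSKO and WT, 19 higher and 1 lower.

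**Figure D4:**
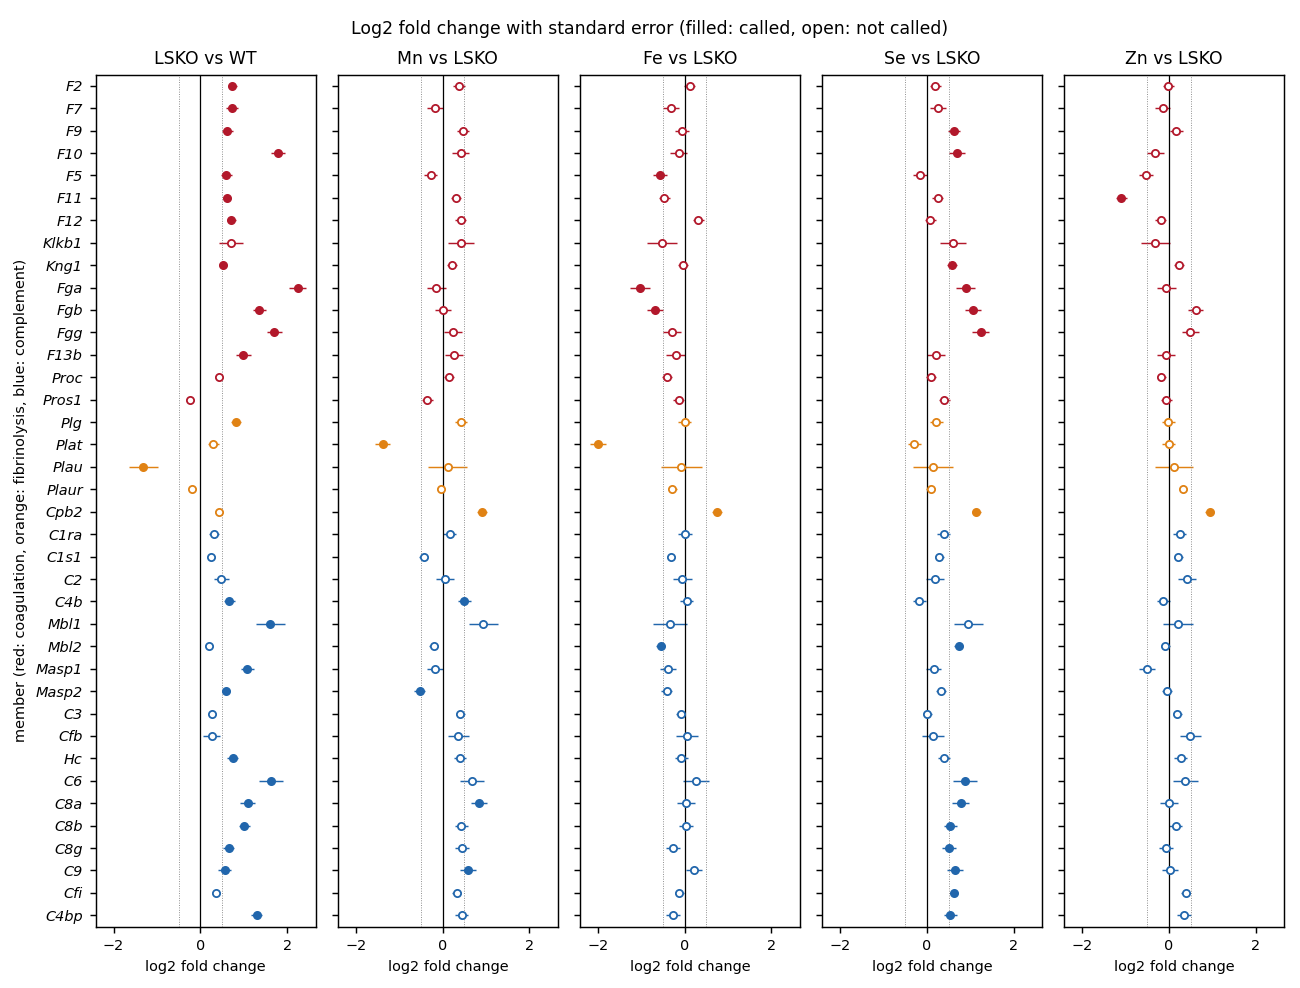
Log2 fold change of each member with its SE (bars) in LSKO against WT and in each metal against untreated LSKO, filled where the member passed and open where it did not, with dotted lines at -0.5 and 0.5. The first panel is filled to the right for 24 members and to the left for Plau, selenite for 15 members to the right, and Cpb2 is filled to the right in all 4 metal panels.

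In manganese against untreated LSKO, 6 members passed. Cpb2 (0.90 ± 0.11 with an adjusted p of 1.01e-04), C8a (0.84 ± 0.19 with an adjusted p of 0.00958), C9 (0.59 ± 0.18 with an adjusted p of 0.0436) and C4b (0.50 ± 0.15 with an adjusted p of 0.0334) were higher on the log2 scale, and Plat (-1.38 ± 0.17 with an adjusted p of 1.03e-04) and Masp2 (-0.53 ± 0.12 with an adjusted p of 0.00902) were lower. These 4 higher and 2 lower of 38 compare with 2.09% and 15.1% of all genes, 17.2% in all. Of the 10 refits C4b was lost in 6, C9 in 4 and Masp2 in 2, while Cpb2, C8a and Plat passed in each. DESeq2 kept 4 of the 6 calls (Cpb2, C8a, Plat and Masp2). With members that share exon bases with an opposite-strand gene left out, Masp2 among them, 5 passed. No coagulation gene was among them by edgeR's quasi-likelihood test or by DESeq2, with 5 of 15 above and 1 below at an unadjusted p under 0.05. The manganese library was above both untreated LSKO libraries in 23 members, against 37.7% of all genes, and below both in 6, against 43.6%. It was the highest of the 8 libraries in 10, against 11.2%, F2, F11, F12, Plg, C3 and Hc among them. The median log2 fold change was 0.32 over the members and -0.02 over all genes. Each metal group is 1 library, so its spread was taken from the WT and LSKO pairs. More members passed without LSKO replicate 2, where their median log2 fold change was 0.51 and that of all genes was -0.02. The read summaries of the manganese library differed from all others as given above. Of the Kupffer cell and macrophage markers 4 of 7 were higher and 1 was lower with manganese, with a summed level of 481, of which Cd68 made up 369.

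Iron against untreated LSKO left 5 members lower and 1 higher. Plat (-2.00 ± 0.19 with an adjusted p of 1.01e-04), Fga (-1.04 ± 0.23 with an adjusted p of 0.0163), Fgb (-0.69 ± 0.19 with an adjusted p of 0.0359), F5 (-0.57 ± 0.16 with an adjusted p of 0.0427) and Mbl2 (-0.55 ± 0.11 with an adjusted p of 0.00855) were lower on the log2 scale, and Cpb2 (0.74 ± 0.11 with an adjusted p of 0.00237) was higher. These counts of 38 compare with 4.89% and 3.8% of all genes, 8.7% in all. The median log2 fold change was -0.14 over the members and -0.00 over all genes. The iron library was below both untreated LSKO libraries in 18 members, a share near the 41.6% of all genes, and above both in 4, F12, Cpb2, C6 and C9, against 42%. Fga fell to 0.486 and Plat to 0.250 of the untreated LSKO level, and Fga and Fgb remained above both WT libraries. Of the marker lists, 5 of the 6 endothelial and 3 of the 6 stellate cell genes were lower with iron, with summed levels of 76.5 and 5.58 against 117 to 147 and 18.9 to 24.1 in untreated LSKO. Their part in the fall of Plat was not tested, and with manganese, where Plat was also lower, the same sums were 138 and 16.4. DESeq2 kept 3 of the 6 calls (Plat, Mbl2 and Cpb2). Fewer members passed without either WT library or without LSKO replicate 2, and more without LSKO replicate 1. The share of all genes that passed moved likewise, except that it rose without LSKO replicate 2. The members' median log2 fold change was -0.16 without either WT library, -0.30 without LSKO replicate 1 and 0.01 without LSKO replicate 2.

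Selenite against untreated LSKO had 15 of 38 members higher against 7.89% of all genes, the most called of the 4 metals. Iron had more when LSKO replicate 1 was left out. Iron also had more with scaling by reads in genes alone, 7 against 6, where 8.75% and 24.9% of all genes passed. None was lower with selenite by edgeR's quasi-likelihood test, against 9.67% of all genes and 17.6% in both directions. The same count of 0 held at an unadjusted p under 0.05 and with DESeq2. The fibrinogen chains rose together, Fgg by 1.24 ± 0.20 with an adjusted p of 0.00173, Fgb by 1.06 ± 0.17 with an adjusted p of 0.00208 and Fga by 0.89 ± 0.21 with an adjusted p of 0.0123 on the log2 scale. The clotting genes F10 (0.69 ± 0.19 with an adjusted p of 0.0213), F9 (0.63 ± 0.15 with an adjusted p of 0.0117) and Kng1 (0.59 ± 0.11 with an adjusted p of 0.00473) were higher too, as was Cpb2 (1.14 ± 0.11 with an adjusted p of 9.62e-05). Of complement, 5 of the 6 terminal genes were higher, C6 (0.88 ± 0.28 with an adjusted p of 0.0415), C8a (0.78 ± 0.20 with an adjusted p of 0.0160), C9 (0.65 ± 0.18 with an adjusted p of 0.0249), C8b (0.54 ± 0.15 with an adjusted p of 0.0246) and C8g (0.51 ± 0.15 with an adjusted p of 0.0328), with both plasma regulators Cfi (0.63 ± 0.10 with an adjusted p of 0.00191) and C4bp (0.54 ± 0.15 with an adjusted p of 0.0270) and the lectin Mbl2 (0.73 ± 0.10 with an adjusted p of 8.71e-04). Of the 11 refits C8g was lost in 9, C6 and C4bp in 6, and F9, F10 and C8b in 5. C9 was lost in 4, Fga, Kng1, C8a and Cfi in 3 and Mbl2 in 2, while Fgb, Fgg and Cpb2 passed in each. No classical pathway gene passed by edgeR's quasi-likelihood test or by DESeq2, with 2 of 4 above at an unadjusted p under 0.05. The median log2 fold change was 0.39 over the members and -0.01 over all genes.

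The selenite library was the highest of the 8 in 21 members, against 25% of all genes, and above both untreated LSKO libraries in 28, against 42.6%. Plat was the one member below both, against 44.2% of all genes. Of the hepatocyte markers, 4 of 8 were higher with selenite as well, and their sum was the highest of all libraries. Of the endothelial and of the stellate cell markers 3 of 6 each were lower, and 3 of 7 Kupffer cell and macrophage markers were higher, and the part of these in the members' values was not tested. Per 1000 of that sum the fibrinogen chains stood at 66.4 with selenite, above every other library, and the complement members at 67.8, below every other library. With scaling by reads in genes alone, without TMM, the median log2 fold change of all genes dropped by 0.24, and 5 members were higher (Fga, Fgb, Fgg, Cpb2 and C8a) and Plat was lower. The count was 9 with DESeq2, against 10.7% of all genes, and 6 with the length and GC correction, against 8.96%. Under that correction the log2 fold change of Mbl2 was 0.26 and that of C9 was 0.23. Fewer members, and a smaller share of all genes, passed without either WT library or without LSKO replicate 1. The reverse held without LSKO replicate 2. The members' median log2 fold change was 0.35 without either WT library, 0.23 without LSKO replicate 1 and 0.50 without LSKO replicate 2.

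Zinc against untreated LSKO changed 2 members. F11 was lower (-1.10 ± 0.13 with an adjusted p of 5.86e-04 on the log2 scale, to 0.467 of the untreated level) and Cpb2 was higher (0.94 ± 0.11 with an adjusted p of 5.83e-04), against 1.55% and 2.9% of all genes, 4.45% in all. Both passed under each of the 11 refits. No complement gene was among them by edgeR's quasi-likelihood test or by DESeq2, with 2 of 18 above and 1 below at an unadjusted p under 0.05. Over the members the median log2 fold change was 0.02, and over all genes -0.01. The zinc library was above both untreated LSKO libraries in 14 members, a share near the 38.3% of all genes, and below both in 7, against 40.2%. The hepatocyte markers had log2 fold changes between -0.53 and 0.33 with zinc. Dropping LSKO replicate 1 gave a count of 5, dropping LSKO replicate 2 a count of 8, and with scaling by reads in genes alone F5 was also lower, which made 1 higher and 2 lower.

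Cpb2 had the same direction with all 4 metals, at log2 fold changes of 0.90, 0.74, 1.14 and 0.94 with manganese, iron, selenite and zinc. The 4 comparisons share the untreated LSKO libraries, so these values are not separate evidence. Each of the 4 metal libraries was above both untreated LSKO libraries in 2 members, Cpb2 and C6, against 7.12% of all genes. The WT pair had read summaries similar to those of the iron, selenite and zinc libraries. Against that pair, the mean of those 3 metals was 1.37 ± 0.09 with an adjusted p of 2.16e-05 higher on the log2 scale for Cpb2.

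That comparison, of the mean of iron, selenite and zinc with WT, took its means from neither untreated LSKO library, though the spread behind its p-values came in part from that pair, and 26 members were higher and 1 was lower, against 7.12% and 6.93% of all genes and 14% in both directions. The lower member was Plau (-1.26 ± 0.30 with an adjusted p of 0.0122 on the log2 scale). Coagulation had 10 of 15 members higher, led by Fgg (2.18 ± 0.17 with an adjusted p of 2.70e-05), Fga (2.17 ± 0.18 with an adjusted p of 4.10e-05), F10 (1.86 ± 0.16 with an adjusted p of 4.25e-05) and Fgb (1.68 ± 0.14 with an adjusted p of 4.29e-05), with F13b, F9, F2, Kng1, F12 and F7 between 0.97 and 0.66. Complement had 14 of 18 higher, led by C6 (2.14 ± 0.26 with an adjusted p of 3.12e-04), Mbl1 (1.89 ± 0.32 with an adjusted p of 0.00196), C4bp (1.497 ± 0.13 with an adjusted p of 4.19e-05) and C8a (1.36 ± 0.16 with an adjusted p of 3.04e-04), and followed by C8b, Hc, C9, Masp1, C8g, C2, Cfi, C4b, Masp2 and C1ra between 1.25 and 0.53. Of fibrinolysis, Cpb2 and Plg (0.89) were higher. Over the members the median log2 fold change was 0.74, and over all genes 0.00. Genotype and metal are both different in this comparison and cannot be told apart. All 8 hepatocyte markers were higher here too, and all 6 endothelial markers were lower.

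Selenite was also set against the mean of iron and zinc, which had similar read summaries, and 14 members were higher with selenite against 7.53% of all genes. None was lower by edgeR's quasi-likelihood test, against 8.35% and 15.9% in both directions, and the same count of 0 held at an unadjusted p under 0.05 and with DESeq2. Fga (1.45 ± 0.21 with an adjusted p of 0.00187), Fgg (1.15 ± 0.20 with an adjusted p of 0.00348) and Fgb (1.10 ± 0.17 with an adjusted p of 0.00241) led on the log2 scale with Mbl2 (1.06 ± 0.10 with an adjusted p of 6.32e-04), F11 (1.03 ± 0.12 with an adjusted p of 9.15e-04) and Klkb1 (1.01 ± 0.31 with an adjusted p of 0.0392). F10, C8a, Plat, C8g, Masp1, F9, Masp2 and Pros1 followed, at 0.92, 0.77, 0.72, 0.69, 0.59, 0.58, 0.57 and 0.50. Over the members the median log2 fold change was 0.49, and over all genes 0.02. Of the pair averaged here, zinc was the lower library for F11 and iron for Plat. F11, Fga, Fgb, Fgg, Plat and Mbl2 passed under each of the 11 refits, and Pros1 was lost in 10 of them. Of the hepatocyte markers 4 of 8 were higher and 1 was lower in this comparison, and 2 of 6 endothelial, 2 of 6 stellate and 2 of 7 Kupffer cell and macrophage markers were higher. Their part in it was not tested.

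The other genes of the 3 systems were taken from a list of 56, of which 45 could be tested. The shares of all genes called higher and lower were 6.74% and 3.7% for LSKO against WT. They were 7.12% and 6.93% for the mean of iron, selenite and zinc against WT. Against untreated LSKO they were 2.09% and 15.1% with manganese, 7.89% and 9.67% with selenite and 2.9% and 1.55% with zinc. Between LSKO and WT, 10 were higher and 1 was lower, led by Cpn2, which encodes the carrier subunit of the peptidase that trims complement peptides (2.63 ± 0.25 with an adjusted p of 6.40e-05 on the log2 scale), Proz, the gene of protein Z (1.82 ± 0.20 with an adjusted p of 1.89e-04), and the factor H-related gene Cfhr2 (1.55 ± 0.14 with an adjusted p of 4.75e-05). Cd55, which encodes a complement inhibitor of the cell surface, was the lower one (-0.89 ± 0.23 with an adjusted p of 0.0252), named after its value was seen. With the mean of iron, selenite and zinc against WT, Cpn2 (2.25), Proz (1.66) and Cfhr2 (1.60) led among 11 higher, and the 2 lower, named after their values were seen, were Procr, the gene of the endothelial protein C receptor (-0.93), and Clu, the gene of clusterin (-0.78). Manganese had 4 higher, Cd55 (0.94 ± 0.27 with an adjusted p of 0.0309), the alternative pathway stabiliser Cfp (0.69 ± 0.18 with an adjusted p of 0.0203), Hrg (0.67 ± 0.16 with an adjusted p of 0.0122) and Habp2 (0.51 ± 0.11 with an adjusted p of 0.00573). With selenite 8 were higher, Cd55 (1.35 ± 0.27 with an adjusted p of 0.00518) and the C3a receptor gene C3ar1 (0.90 ± 0.27 with an adjusted p of 0.0307) among them, and the protease clearance receptor gene Lrp1 was lower (-1.24 ± 0.16 with an adjusted p of 6.04e-04). With zinc none passed by edgeR's quasi-likelihood test or DESeq2, with 4 above and 8 below at an unadjusted p under 0.05.

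Where 4.89% of all genes were lower and 3.8% higher with iron, 8 of these 45 other genes were lower. They included C1qa (-1.62 ± 0.20 with an adjusted p of 8.09e-04 on the log2 scale) and C1qb (-1.35 ± 0.22 with an adjusted p of 0.00396), which encode chains of the recognition molecule of the classical pathway, and Vsig4 (-1.44 ± 0.28 with an adjusted p of 0.00889), the gene of a complement receptor of Kupffer cells. Colec11, which encodes a soluble lectin, had 1 read in the iron library against 13 and 29 in untreated LSKO. None was higher by edgeR's quasi-likelihood test or DESeq2, with 1 at an unadjusted p under 0.05. C1qa measured 9.53 and 9.50 normalized CPM in WT, 14.7 and 18.9 in untreated LSKO, and 23.4, 5.48, 21.5 and 13.9 with manganese, iron, selenite and zinc. Its level with iron was the lowest of the 8 libraries, and of the Kupffer cell and macrophage markers 1 of 7 was lower with iron and 5 of 7 had a log2 fold change under 0. Without Cd68, the most abundant of the 7, their sum was 61.8 with iron against 72.2 and 79.3 in untreated LSKO, while Cd68 itself stood at 263 against 178 and 201. The part of these cells in the levels of C1qa, C1qb and Vsig4 was not tested. The genes of the C1 proteases, C1ra and C1s1, did not pass with iron. With selenite against the mean of iron and zinc, 19 of the 45 were higher and 1 was lower, against 7.53% and 8.35% of all genes. Cd55 (1.43 ± 0.28 with an adjusted p of 0.00548), C1qa (1.30 ± 0.18 with an adjusted p of 0.00139), C4a (1.18 ± 0.28 with an adjusted p of 0.0123) and C1qb (1.17 ± 0.20 with an adjusted p of 0.00321) were the largest named by the rule, with Lrp1 the lower one (-1.14).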

How the data were processed

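RNA from the 8 hepatocyte samples was sequenced and the authors deposited 1 file of raw counts per library, whole reads per gene. The submitters' processing notes name Trimmomatic, HISAT2, HTSeq, DESeq2 and GRCm38 without versions, and for the strand setting, annotation release and alignment quality limit a value was not given in the sources used here. Summary lines were kept out of library sizes. Over all reads of a library, 4.48 to 45.6% lay in no gene, 1.25 to 5.18% were ambiguous, 0 to 1.26% were of low alignment quality, 4.12 to 10.00% were unaligned and 5.46 to 9.36% aligned to several places. Reads in no gene made up 4.48% with manganese, against 42.3 to 45.6% elsewhere, and low-quality alignments numbered 0 in both untreated LSKO libraries, 62 with manganese and 592678 to 680199 in the other 5.

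Symbols were taken from the GRCm38 annotation (GENCODE), which matched all 55450 identifiers. Genes with at least 80 reads over the 8 libraries were kept, and edgeR's quasi-likelihood test (edgeR 4.0.16, R 4.3.3, TMM scaling) was fitted over all 8 libraries with 6 groups. The fit left 2 residual degrees of freedom, from the WT and LSKO pairs, and the groups of 1 library were assumed to vary like these. P-values were adjusted by Benjamini and Hochberg over the 15468 genes tested. The members and gene lists were chosen with earlier results of these data known. Every member was named with its level in each library, with the members called in each comparison, the members with the largest change where fewer than 2 were called, up to 4 called related genes with the largest change per comparison, and near-identical copies. The values of 1 related gene are not reported here. Refits used DESeq2 1.42.0, other scalings, filters and fold limits, a length and GC correction, each replicate left out, the manganese library left out, and a replicate block.

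The fit was tested on simulated data with 200 of the 15468 genes changed. For LSKO against WT it called 46.3% of genes changed 1.5-fold, 86.6% of those changed 2-fold and 0.0589% of unchanged genes. For the metals against untreated LSKO it called 38.8 to 43.3% of genes changed 1.5-fold. The counts were drawn with the spread estimated by the same model and without the differences in read summaries. These shares therefore cannot test that spread or those differences. Replicates of a group differed by more than sampling noise (chi-square per gene 5.98 for WT and 13.3 for LSKO). The lowest member count was 24 reads in a library.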

Additional observations from a re-analysis of the deposited data

How the results depend on the processing

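Member counts were recomputed under each alternative, and no log2 fold change of a called member reversed. The share of all genes called differed between the refits as well. A log2 fold limit of 1 left 11 members called between LSKO and WT, 1 with manganese, 2 with iron, 3 with selenite, 1 with zinc, 11 for the mean of iron, selenite and zinc against WT, and 6 for selenite against iron and zinc. With no fold limit manganese had 11. The share of all genes that passed was not computed at a limit of 1 or with no limit. These counts can therefore not be set against all genes. DESeq2 called 3 with iron, against 4.77% of all genes, and 9 with selenite, against 10.7%. Scaling by reads in genes alone gave 6 with selenite, against 24.9%, and 8 for selenite against iron and zinc, against 19.7%. The length and GC correction gave 6 with selenite, against 8.96%, and no filter on low counts gave 5 with zinc, against 3.74%. The cause of these shifts was not tested. Under scaling by reads in genes alone the median log2 fold change of all genes dropped by 0.15 for the 3 metals against WT and dropped by 0.19 for selenite against iron and zinc. Leaving out 1 untreated replicate at a time gave 7 to 29 called members for LSKO against WT, 4 to 17 for manganese, 3 to 12 for iron, 5 to 18 for selenite, 2 to 8 for zinc, 19 to 27 for the 3 metals against WT and 10 to 14 for selenite against iron and zinc, the lone replicate being assumed to vary like the other pair. Of 2964 refits of single members, 2740 kept their side of the threshold, 175 lost a call and 49 gained one. These refits covered 266 pairs of member and comparison, most of them not called. A call could be lost only in the called pairs, so the 2740 do not measure how stable calls were.

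Same-numbered WT and LSKO libraries did not deviate together (correlation of deviations -0.0833). This value cannot show whether they were prepared together. With 4 untreated libraries the replicate block gave 25 called members, as did the fit of those libraries without the block. Each metal has 1 library, so its values carry no replicate check of their own. A member that did not pass may still differ. The different read summaries of the untreated LSKO and manganese libraries cannot be told apart from group there.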

Other observations

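Genes on the opposite strand of members were counted unevenly in 1 library. Gm30097, which overlaps Fgg, had 220, 229, 664, 1139, 616, 1503 and 1251 reads in the WT, untreated LSKO, iron, selenite and zinc libraries and 0 with manganese. Gm16567, which overlaps C1s1, had 1385 to 2305 reads in the other 7 libraries and 0 with manganese. Slc22a3, which overlaps Plg, had 207 to 530 and 2. Tardbp, which overlaps Masp2, had 7381 to 10410 and 7904. Outside the manganese library Gm30097 had the fewest reads in WT and the most with selenite, as had Fgg. Masp2 and C1s1 were below both untreated LSKO libraries with manganese, and the part of this overlap in their values was not tested.

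The level of Mbl1 was 0.239 to 1.93% of that of Mbl2 per kb of exon, lowest in WT replicate 1 and highest with manganese. Without the fibrinogen chains, coagulation stood at 54.1 and 54.98 per 1000 normalized CPM of the hepatocyte marker sum in WT, 52.5 and 51.5 in untreated LSKO and 44.2 with selenite, against 26.3, 27.3, 43.3, 52.97 and 66.4 for the 3 chains.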
